A study of Mus musculus with 9 samples.

Results

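The genes described here are 37 genes of fibroblasts, extracellular matrix and mesothelium, measured in the whole pancreas of e18.5 mouse embryos. They were chosen by name, from known function and cell type, out of the 55453 gene symbols in the count files. All 37 were in the files, and all 37 passed the filter on low counts, as did 19166 genes in total. RNA of the dissected organ was sequenced from 3 embryo samples in each of 3 groups, all of mixed C57BL6 strain and all carrying Pdx1:Cre. The control group was labelled Pdx1:Cre alone, another group Pdx1:Cre;Grg3 and the last Pdx1:Cre;Grg3Grg4. They are called control, Grg3-labelled and Grg3 Grg4-labelled below. Grg3 and Grg4 are Groucho co-repressors, encoded by Tle3 and Tle4, and the series describes them as pancreas-specific mutants. The Pdx1 promoter is active in the epithelium of the developing pancreas, which is not the cell type that makes most of the matrix. Neither litters nor the altered exons are stated in the labels. The p-values therefore measure the spread between these samples only.

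Connective tissue of the fetal pancreas is a loose mesenchyme of fibroblast-like cells, pericytes and smooth muscle, with a mesothelial sheet on the surface. Its cells secrete fibrillar collagens, elastic fibre proteins and proteoglycans, and with the epithelium they build the basement membrane on which acini, ducts and islets rest. Signals from this mesenchyme are known to promote growth of the pancreatic epithelium.

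Gene counts summed to 46817453 to 62744499 per library, and the 37 genes took 1.6% to 2.93% of them. Tle3 was at 63.1 to 67.7 CPM (counts scaled to a common total of 1000000 per library) in the control libraries, 145 to 167 CPM in the Grg3-labelled and 126 to 146 CPM in the Grg3 Grg4-labelled ones. It was thus higher in the libraries labelled as mutant. Since the altered exons are not stated, counts over the whole gene cannot check the labels, and every direction below is between labelled groups. Tle4 was at 7.68 to 7.84, 9.83 to 13.8 and 8.63 to 15.5 CPM in the same order. Xist was at 0.265 CPM or less in control replicate 1, Grg3-labelled replicate 1 and all 3 Grg3 Grg4-labelled libraries, and at 428 to 755 CPM in the other 4. The control and Grg3-labelled groups therefore held both sexes and the Grg3 Grg4-labelled group only males. Genes of a neighbouring organ also differed: the summed CPM of 12 liver genes was 213 to 228 in the control, 364 to 1810 in the Grg3-labelled and 843 to 2040 in the Grg3 Grg4-labelled libraries, and its part in the member values was not tested.

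Few of the 37 genes passed the test between the labelled groups. Fbln1, which encodes the elastic fibre and basement membrane protein fibulin-1, was 1.42-fold higher in the Grg3-labelled libraries than in the control. Clec3b, which encodes the plasminogen-binding protein tetranectin and marks adventitial fibroblasts, was lower in the Grg3 Grg4-labelled libraries, at 0.587 of the control level and 0.49 of the Grg3-labelled level. No other member passed edgeR's quasi-likelihood test at an adjusted p under 0.05 in any of the 3 comparisons. The share of members called was 1 of 37 in each comparison. For Grg3-labelled against control the test called 1.4% of all genes, 0.704% higher and 0.694% lower. For Grg3 Grg4-labelled against control it called 2.14%, 1.24% higher and 0.897% lower, and for Grg3 Grg4-labelled against Grg3-labelled 0.188%, 0.13% higher and 0.0574% lower. At an unadjusted p under 0.05, 7, 8 and 10 members were counted in these comparisons, against 19.1%, 20.2% and 17.3% of all genes. DESeq2's Wald test called 4, 3 and 6 of the 37 members, against 8%, 8.16% and 5.81% of the genes it gave an adjusted p, and limma's voom fit 2, 1 and 1, against 2.2%, 5.39% and 0.125%. DESeq2's calls for Grg3-labelled against control were Fbln1, Eln, Mmp2 and Timp1, for Grg3 Grg4-labelled against control Clec3b, Tcf21 and Wt1, and for Grg3 Grg4-labelled against Grg3-labelled Clec3b, Fbln1, Sparc, Lum, Dpt and Timp1.

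**Figure D1:**
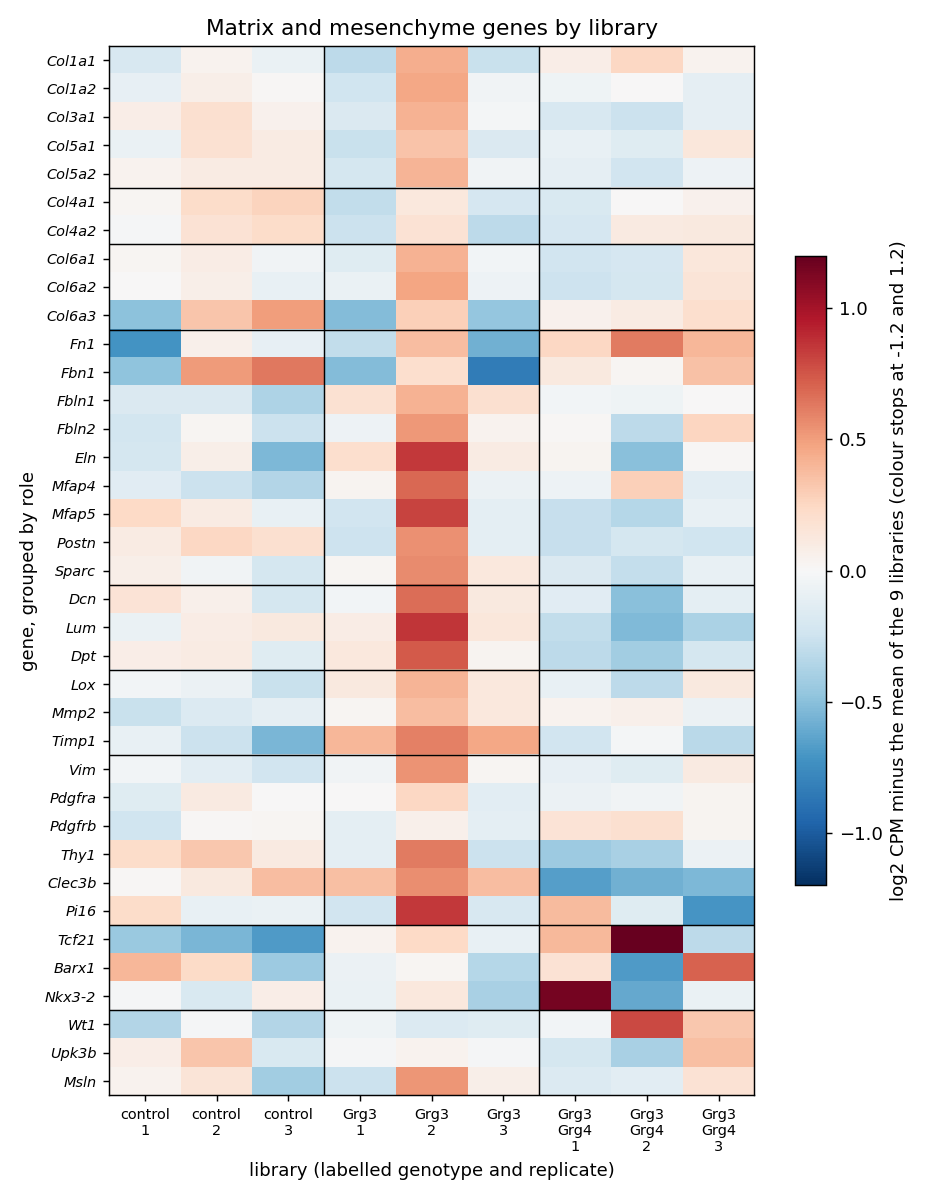
Log2 CPM of each of the 37 genes (rows, grouped by role) in each of the 9 libraries (columns), as the difference from the mean of the 9 libraries. The column of Grg3-labelled replicate 2 is the highest in 26 of the 37 genes.

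A single library stood apart. Grg3-labelled replicate 2 had the highest CPM of the 9 libraries in 26 of the 37 genes, against 16.5% of all genes tested. It lay above the mean of the other Grg3-labelled libraries in 36 of 37 members, with a median log2 difference of 0.54 (1.45-fold), where all genes tested had a median of 0.02. The summed CPM of the members was 18000, 20200 and 18800 in control replicates 1, 2 and 3. It was 16500, 25200 and 17500 in the Grg3-labelled libraries and 17500, 17900 and 18800 in the Grg3 Grg4-labelled libraries. Apart from Grg3-labelled replicate 2, the Grg3-labelled sums lay below every control sum, and the Grg3 Grg4-labelled sums overlapped those of the control.

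Genes of other cell types moved with that library. The summed CPM of 26 acinar genes was 211000 in Grg3-labelled replicate 2, against 309000 and 400000 in its group mates, 393000 to 450000 in the control and 256000 to 293000 in the Grg3 Grg4-labelled libraries. Grg3-labelled replicate 2 was also highest in 9 of 10 endothelial, 7 of 10 macrophage and leukocyte and 6 of 8 neural crest and Schwann genes. Their part in the member values was not tested. In RNA of a whole organ, fewer cells of a type and less RNA per cell cannot be told apart. The median SD of log2 CPM within a group was 0.313 over the members in the Grg3-labelled libraries, against 0.134 in the control and 0.152 in the Grg3 Grg4-labelled libraries; for all genes it was 0.222, 0.155 and 0.177.

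**Figure D2:**
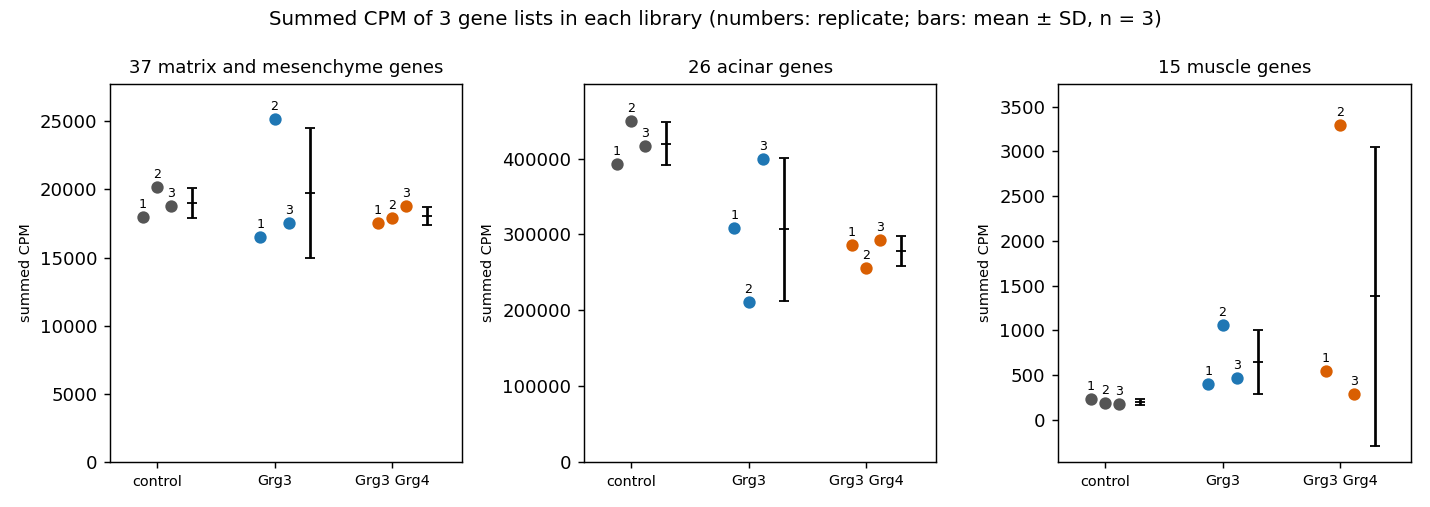
Summed CPM of the 37 members, 26 acinar genes and 15 muscle genes in each library (points, numbered by replicate), with mean ± SD (n = 3). Grg3-labelled replicate 2 had the highest member sum (25200) and the lowest acinar sum (211000), and Grg3 Grg4-labelled replicate 2 had the highest muscle sum (3300).

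Promoter sequence is shown for 3 members, chosen after their values were seen, among those whose RefSeq start equals the GENCODE start. They are Col3a1, the fibrillar collagen with the highest level per length, Fbln1, which rose, and Timp1, which came nearest to the threshold among the rest. RefSeq promoter windows on GRCm38.p6 were at hand for 22 of the 37 genes. The 250 bases before the start are given 5′ to 3′ on the gene's strand, with capitals where a motif was found. The windows are chr1:45311288-45311537 (Col3a1), chr15:85205699-85205948 (Fbln1) and chrX:20869916-20870165 (Timp1), all on the plus strand.
Col3a1: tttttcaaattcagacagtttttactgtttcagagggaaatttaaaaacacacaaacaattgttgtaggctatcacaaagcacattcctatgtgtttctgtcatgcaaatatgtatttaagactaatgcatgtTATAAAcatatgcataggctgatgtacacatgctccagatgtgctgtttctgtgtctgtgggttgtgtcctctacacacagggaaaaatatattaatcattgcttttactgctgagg
Fbln1: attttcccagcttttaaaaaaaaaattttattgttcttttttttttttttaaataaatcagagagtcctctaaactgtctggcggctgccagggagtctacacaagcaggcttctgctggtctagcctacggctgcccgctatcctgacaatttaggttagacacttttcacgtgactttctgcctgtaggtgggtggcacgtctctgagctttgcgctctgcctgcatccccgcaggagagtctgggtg
Timp1: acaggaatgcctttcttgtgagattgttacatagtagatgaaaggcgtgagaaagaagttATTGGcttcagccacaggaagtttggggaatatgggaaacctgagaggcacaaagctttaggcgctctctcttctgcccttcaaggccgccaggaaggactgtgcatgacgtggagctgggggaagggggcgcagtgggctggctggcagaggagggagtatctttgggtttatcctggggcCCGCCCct

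The TATA box TATAAA, the CCAAT box, the GC box GGGCGG, the forkhead core TGTTTAC and the AP-1 core TGANTCA were searched on both strands in these windows. The capitals mark a TATAAA 117 bases before the Col3a1 start, and in Timp1 a CCAAT 190 bases and a GGGCGG 8 bases before the start, both on the opposite strand. The Fbln1 window held none of them, and a second RefSeq window for Fbln1 (chr15:85205758-85206007) held a GGGCGG 11 bases before its own start. TATAAA was in windows of 3 of the 22 genes and in 12.4% of all 32851 windows, CCAAT in 6 genes and 33.8%, and GGGCGG in 10 genes and 32.7%. TGTTTAC was in 1 gene and 3.17% of windows, and TGANTCA in 1 gene and 6.75%; the gene was Col6a1 for both. These matches are letters in a window and say nothing of binding.

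The most abundant members were fibrillar collagens and Sparc, a collagen-binding protein. Per kilobase of the longest annotated transcript, Col3a1 was at 676.8 ± 36.0 CPM over the control libraries (SD with n = 3), Sparc at 534.6 ± 51.7, Col1a1 at 464.1 ± 37 and Col1a2 at 360.6 ± 22.4. The lowest were Nkx3-2 at 1.97 and Pi16 at 2.47 CPM per kb. The transcript used for the length was chosen after the per-length values had been seen. With the union of all annotated exons as the length, Col1a1 (419 CPM per kb) stood above Col3a1 (384 CPM per kb), so the order of these collagens depends on the length. The length enters no test between groups.

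The fibrillar collagens, which form the tensile fibres of connective tissue, did not pass edgeR's test in any comparison, nor with DESeq2 or voom, and none had an unadjusted p under 0.05. Col1a1, on chromosome 11 (94936224 to 94953042), encodes an alpha chain of type I collagen and was at 2540, 2980 and 2740 CPM in control replicates 1, 2 and 3, at 2330, 3920 and 2400 CPM in the Grg3-labelled libraries and at 3060, 3450 and 2970 CPM in the Grg3 Grg4-labelled libraries. The groups overlapped, and the log2 difference of Grg3 Grg4-labelled against control was 0.20 ± 0.199 (SE; edgeR adjusted p = 0.626). Col1a2, the partner chain of type I collagen, was at 1800, 2040 and 1950 CPM in the control, 1640, 2660 and 1880 in the Grg3-labelled and 1870, 1940 and 1790 in the Grg3 Grg4-labelled libraries, again with overlap. Col3a1, the chain of type III collagen of reticular fibres (chromosome 1, 45311538 to 45349706), was at 3680, 4000 and 3620 CPM in the control, 3110, 4680 and 3440 in the Grg3-labelled and 3060, 2920 and 3220 in the Grg3 Grg4-labelled libraries. All Grg3 Grg4-labelled values of Col3a1 lay below all control values, with a log2 difference of -0.30 ± 0.163 (edgeR adjusted p = 0.343). Col5a2, a chain of the type V collagen that helps to start fibrils, also had no overlap, at 355, 370 and 371 CPM in the control and 321, 295 and 332 in the Grg3 Grg4-labelled libraries (log2 -0.21, edgeR adjusted p = 0.46). Col5a1, its partner chain, ran from 641 to 983 CPM over the 9 libraries with overlap in each comparison. With embryo sex in the fit, the log2 differences of Grg3 Grg4-labelled against control were 0.40 for Col1a1, -0.15 for Col3a1 and -0.06 for Col5a2, and without Grg3 Grg4-labelled replicate 2 that of Col1a1 was 0.13.

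Ratios between collagen chains cancel the scaling of a library. Col3a1 over Col1a1, per kilobase of the longest transcript, was 1.54, 1.43 and 1.41 in control replicates 1, 2 and 3, 1.42, 1.27 and 1.53 in the Grg3-labelled libraries and 1.07, 0.902 and 1.16 in the Grg3 Grg4-labelled libraries. The last group lay below every library of the others. Against the other type I chain, the Grg3 Grg4-labelled group again lay below the control but overlapped the Grg3-labelled group. Col3a1 over Col1a2 was 1.79 to 1.96 in the control, 1.69 to 1.83 in the Grg3-labelled and 1.45 to 1.73 in the Grg3 Grg4-labelled libraries. Col1a1 over Col1a2 was 1.27 to 1.32, 1.16 to 1.33 and 1.47 to 1.61 in the same order of groups, with the last group above the others. These ratios were chosen after their values were seen and are given with no test; an exact permutation test of 3 against 3 cannot go below p = 0.1. Exon union lengths give 0.566 to 0.726 for Col3a1 over Col1a1 in the Grg3 Grg4-labelled libraries, against 0.798 to 0.968 over the other 6, since a length scales all libraries alike.

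Type IV and type VI collagens, of basement membranes and of the microfibrils around cells, gave no call with edgeR, DESeq2 or voom, and no unadjusted p under 0.05. Col4a1 was at 1420, 1630 and 1700 CPM in the control, 1140, 1540 and 1220 in the Grg3-labelled and 1230, 1400 and 1450 in the Grg3 Grg4-labelled libraries, and Col4a2, its neighbour on chromosome 8, at 739, 839 and 865, then 619, 837 and 600, then 645, 801 and 805 CPM. Both overlapped between the groups, and their log2 differences of Grg3-labelled against control were -0.28 and -0.25 (edgeR adjusted p = 0.308 and 0.404), the latter between -0.42 without Grg3-labelled replicate 2 and -0.16 without Grg3-labelled replicate 3. The pair overlap by 22 bases on opposite strands. Reads there cannot be assigned if counting ignored the strand, and the strand setting is not given. Col6a1 was at 715, 748 and 685 CPM in the control, 634, 941 and 688 in the Grg3-labelled and 601, 614 and 777 in the Grg3 Grg4-labelled libraries. Col6a2 followed it, with Col6a2 over Col6a1 per kb between 0.965 and 1.05 in all 9 libraries.

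Col6a3, the largest chain of type VI collagen, did not follow Col6a1. It was at 241, 424 and 477 CPM in the control, 235, 412 and 245 in the Grg3-labelled and 349, 362 and 387 in the Grg3 Grg4-labelled libraries. Control replicate 1 was nearly as low as the lowest Grg3-labelled library. Fbn1, which encodes the microfibril protein fibrillin-1, varied in the same way, at 236, 470 and 510, then 230, 379 and 184, then 358, 334 and 419 CPM. The longest transcripts of Fbn1 (11971 bp) and Col6a3 (10106 bp) are the longest of the members, against 4100 bp for Col6a1. Over 899 other protein-coding genes with a transcript over 8 kb, the median log2 CPM relative to the mean of the 9 libraries was -0.07, 0.13 and 0.24 in the control, -0.13, -0.08 and -0.23 in the Grg3-labelled and 0.05, 0.07 and 0.02 in the Grg3 Grg4-labelled libraries. Fbn1 and Col6a3 lay on the same side of 0 as that median except in Grg3-labelled replicate 2. The other members with a transcript over 8 kb did so less fully: Col5a1 was at -0.09 and -0.15 in Grg3 Grg4-labelled replicates 1 and 2, and Fn1 at -0.10 in control replicate 3. The part of transcript length in the member values was not tested.

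**Figure D3:**
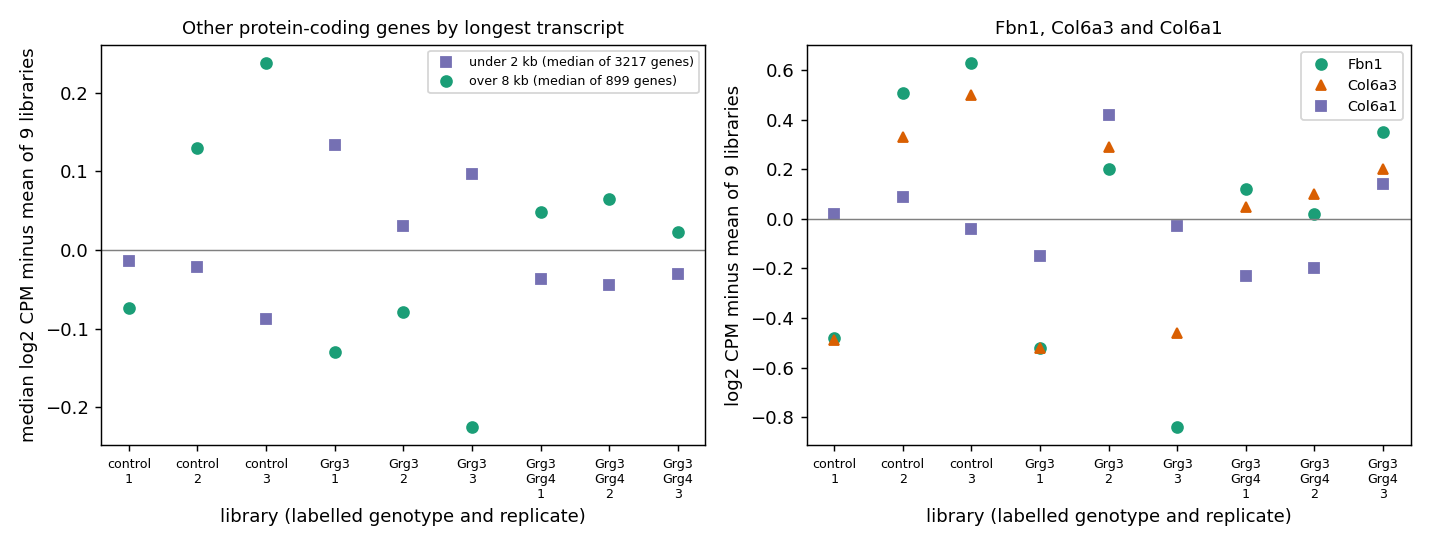
Left, median log2 CPM relative to the mean of the 9 libraries for other protein-coding genes with a longest transcript under 2 kb (3217 genes) or over 8 kb (899 genes), by library; right, the same quantity for Fbn1, Col6a3 and Col6a1. Fbn1 and Col6a3 were low in control replicate 1 and in Grg3-labelled replicates 1 and 3, libraries in which the median of long transcripts was below 0.

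Of the elastic fibre and adhesive glycoproteins, 1 of 9 passed edgeR's test, against 2 of 9 with DESeq2 (Fbln1 and Eln) for Grg3-labelled against control. Fbln1 (chromosome 15, 85205949 to 85286535) was at 130, 130 and 114 CPM in control replicates 1, 2 and 3, 166, 196 and 167 in the Grg3-labelled libraries and 144, 142 and 147 in the Grg3 Grg4-labelled libraries. The 3 groups did not overlap. Fbln1 rose in the Grg3-labelled libraries by 0.50 ± 0.0931 on the log2 scale (SE; edgeR adjusted p = 0.035), and the other differences were 0.21 for Grg3 Grg4-labelled against control (adjusted p = 0.246) and -0.29 for Grg3 Grg4-labelled against Grg3-labelled (adjusted p = 0.162). The call of Fbln1 held in 9 of 18 alternative fits and in 3 of 9 fits that left out a library; without control replicate 3 its adjusted p was 0.163 in edgeR and its log2 difference 0.44. With embryo sex in the fit the adjusted p was 0.0565. Fbln1 overlaps no other annotated gene. Of 30 tested genes within 1 Mb of it, edgeR called 0 for Grg3-labelled against control (1.4% of all genes). For Grg3 Grg4-labelled against control it called 1 (2.14% of all genes), and between the mutant-labelled groups 0 (0.188%). At shares this small, so few neighbours cannot show whether the region differed.

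Elastin and its microfibril partner were higher in every Grg3-labelled than in every control library without passing edgeR's test. Eln, the elastic core protein, was at 486, 587 and 385 CPM in the control, 643, 1010 and 602 in the Grg3-labelled and 572, 398 and 565 in the Grg3 Grg4-labelled libraries. Its Grg3-labelled values lay above all others, by 0.63 ± 0.231 over the control on the log2 scale (edgeR adjusted p = 0.183). Mfap4, a glycoprotein that binds elastin and collagen, was at 71, 65.1 and 61.2 CPM in the control, 79.7, 125 and 74.3 in the Grg3-labelled and 74.6, 95.3 and 71 in the Grg3 Grg4-labelled libraries. Its control values were below every Grg3-labelled value (log2 0.50 ± 0.189, edgeR adjusted p = 0.191). Without Grg3-labelled replicate 2 the log2 differences were 0.36 for Eln and 0.23 for Mfap4. Fbln2, a related fibulin, overlapped in all comparisons, between 138 and 246 CPM.

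Mfap5, a microfibril protein, was at 46.3, 42.1 and 36.7 CPM in the control, 33.4, 68.5 and 36.1 in the Grg3-labelled and 32.2, 30.9 and 36.7 in the Grg3 Grg4-labelled libraries. Control and Grg3 Grg4-labelled values met only at 36.7 when rounded (log2 -0.33, edgeR adjusted p = 0.48). Postn, the matricellular protein periostin, was at 503, 559 and 537 CPM in the control, 394, 690 and 433 in the Grg3-labelled and 388, 406 and 398 in the Grg3 Grg4-labelled libraries. The last group lay below the control throughout (log2 -0.42 ± 0.182, edgeR adjusted p = 0.231). With embryo sex in the fit the log2 difference of Postn was -0.22, and that of Mfap5 -0.21.

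Sparc, a collagen-binding matricellular protein, was at 1340, 1240 and 1110 CPM in the control, 1290, 1890 and 1400 in the Grg3-labelled and 1140, 1050 and 1200 in the Grg3 Grg4-labelled libraries. It separated only the labelled mutant groups from each other (log2 -0.44, edgeR adjusted p = 0.195), by -0.26 without Grg3-labelled replicate 2. Fn1, which encodes the cell-binding protein fibronectin, was at 195, 336 and 301 CPM in the control, 261, 416 and 215 in the Grg3-labelled and 382, 495 and 425 in the Grg3 Grg4-labelled libraries. The last group was above the control without overlap (log2 0.65 ± 0.256, edgeR adjusted p = 0.196), and with a longest transcript of 8315 bp Fn1 is itself a long gene. With embryo sex in the fit its log2 difference was 1.004.

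**Figure D4:**
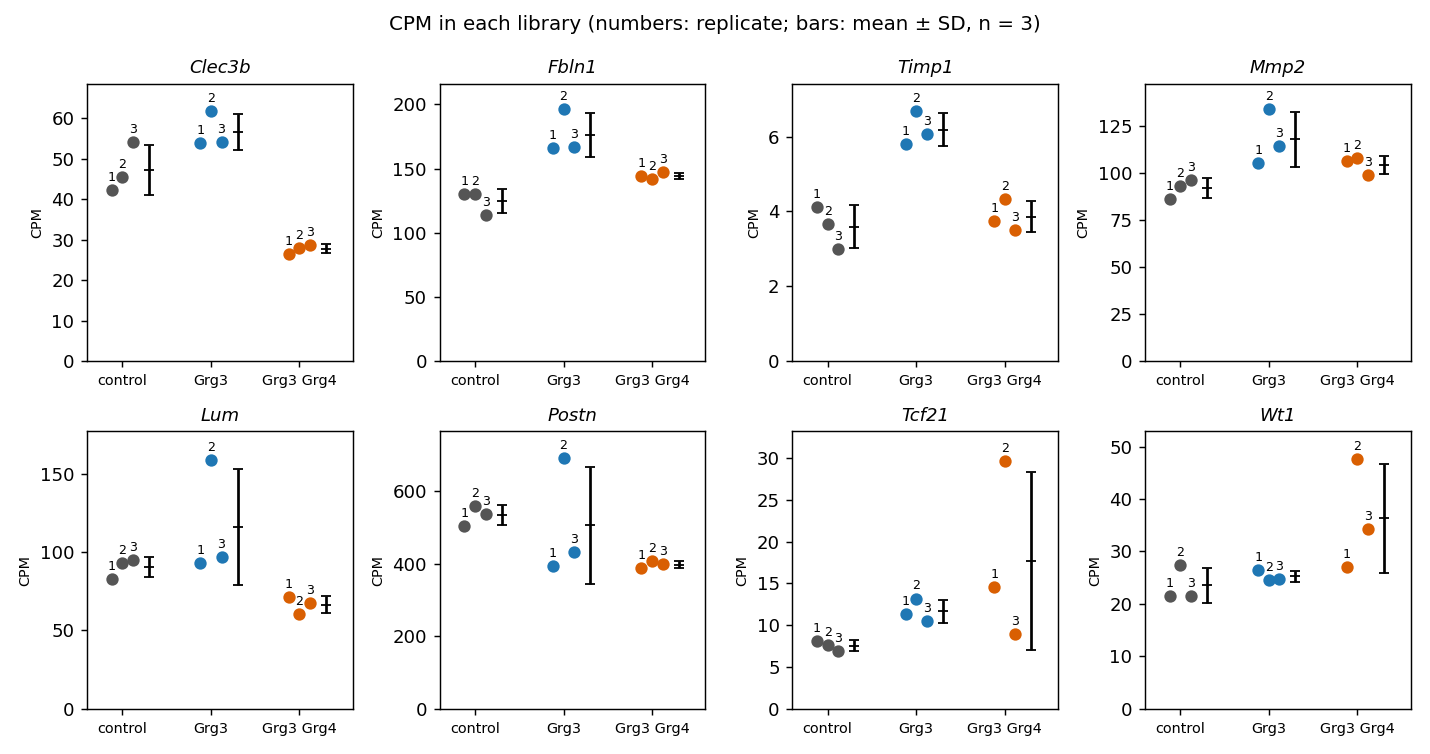
CPM of 8 members in each library (points, numbered by replicate), with mean ± SD (n = 3) beside each group. Clec3b separates the Grg3 Grg4-labelled libraries (26.5 to 28.7 CPM) from all others (42.3 to 61.7 CPM), while Lum, Postn, Tcf21 and Wt1 each have 1 library far from its group mates.

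The small proteoglycans decorin (Dcn) and lumican (Lum), which bind collagen fibrils, and dermatopontin (Dpt), which binds decorin, were lower in the Grg3 Grg4-labelled than in the Grg3-labelled libraries, without passing edgeR's test. In that comparison DESeq2's Wald test called Lum and Dpt (adjusted p = 0.00139 and 0.0108) but not Dcn. So did edgeR with no filter (adjusted p = 0.023 and 0.0466), while voom called 0 of the 3. Lum was at 82.9, 93.3 and 95.2 CPM in the control, 93.1, 159 and 96.9 in the Grg3-labelled and 71.2, 60.8 and 67.5 in the Grg3 Grg4-labelled libraries. The Grg3 Grg4-labelled values lay below all others, by -0.81 ± 0.182 against Grg3-labelled (edgeR adjusted p = 0.0964) and -0.44 against control (adjusted p = 0.209). Dpt, at 59.4, 60.5 and 50.8, then 61.4, 94.2 and 57.4, then 45.4, 42.1 and 48.6 CPM, had the same order (-0.65, edgeR adjusted p = 0.119). Dcn, at 367, 344 and 285, then 322, 524 and 358, then 299, 233 and 304 CPM, overlapped with the control only (-0.53, edgeR adjusted p = 0.2). Without Grg3-labelled replicate 2 the differences against Grg3-labelled were -0.52 for Lum, -0.39 for Dpt and -0.29 for Dcn. With that library left out of edgeR's fit, Lum passed for Grg3 Grg4-labelled against control, along with Postn, Thy1 and Clec3b. With embryo sex in the fit, that difference of Lum was -0.23.

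The matrix enzymes and their inhibitor were each higher in all Grg3-labelled than in all control libraries. Timp1, an inhibitor of matrix metalloproteinases (chromosome X, 20870166 to 20874735), was at 4.13, 3.66 and 2.99 CPM in the control, 5.81, 6.68 and 6.06 in the Grg3-labelled and 3.75, 4.32 and 3.51 in the Grg3 Grg4-labelled libraries. The log2 difference of Grg3-labelled against control was 0.78 ± 0.172 (edgeR adjusted p = 0.0602), and limma's voom fit gave 0.0406. Timp1 lies within the span of Syn1, introns included, on the opposite strand, and whether the exons of the pair overlap was not examined. Mmp2, a gelatinase, was at 86, 93.1 and 96.2 CPM in the control, 105, 134 and 114 in the Grg3-labelled and 106, 108 and 98.7 in the Grg3 Grg4-labelled libraries (log2 0.36 ± 0.098, edgeR adjusted p = 0.0995). Lox, the enzyme that crosslinks collagen and elastin, was at 146, 141 and 123, then 161, 198 and 163, then 139, 120 and 161 CPM (log2 0.35, edgeR adjusted p = 0.184).

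Among fibroblast surface and cytoskeleton genes, only Clec3b passed. Clec3b (chromosome 9, 123150946 to 123157432) was at 42.3, 45.4 and 54.1 CPM in control replicates 1, 2 and 3, 53.8, 61.7 and 54.2 in the Grg3-labelled libraries and 26.5, 27.9 and 28.7 in the Grg3 Grg4-labelled libraries. The last group lay below every other library. Clec3b fell by 0.77 ± 0.101 against the control (log2, SE; edgeR adjusted p = 0.00824) and by 1.03 ± 0.101 against the Grg3-labelled libraries (edgeR adjusted p = 0.00525), while Grg3-labelled against control was 0.26 (adjusted p = 0.201).

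The fall of Clec3b passed in 17 of 18 alternative fits in both comparisons. The exception was the fit with embryo sex as a term, in which the log2 differences were -0.65 (edgeR adjusted p = 0.0725) and -0.91 (adjusted p = 0.0561). Among male libraries alone, the values were 42.3 CPM in control replicate 1, 53.8 CPM in Grg3-labelled replicate 1 and 26.5 to 28.7 CPM in the Grg3 Grg4-labelled libraries. Clec3b overlaps no other annotated gene. None of 31 tested genes within 1 Mb was called in any comparison, where edgeR called 1.4%, 2.14% and 0.188% of all genes. At shares this small, so few neighbours cannot show whether the region differed.

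Other fibroblast genes did not separate as far. Vim, the intermediate filament vimentin, was at 694, 650 and 608 CPM in the control, 690, 1040 and 723 in the Grg3-labelled and 664, 640 and 768 in the Grg3 Grg4-labelled libraries. The PDGF receptor genes, which mark fibroblasts (Pdgfra) and pericytes (Pdgfrb), ranged over 58.1 to 77 CPM and 73.2 to 98.3 CPM. Pdgfrb was higher in every Grg3 Grg4-labelled library (96.4, 98.3 and 88.2 CPM) than in every control library (73.2, 87.2 and 87.4 CPM), with a log2 difference of 0.19 (edgeR adjusted p = 0.288; 0.11 without control replicate 1 and 0.31 with embryo sex in the fit). Thy1, a surface glycoprotein of fibroblasts and neurons, was at 30.2, 32.3 and 27.9 CPM in the control, 23.7, 39.8 and 21.5 in the Grg3-labelled and 19, 19.7 and 24.5 in the Grg3 Grg4-labelled libraries (log2 -0.51 against control, edgeR adjusted p = 0.207). Pi16, a marker of adventitial fibroblasts like Clec3b, was at 11.3, 9.11 and 9.22, then 8.28, 17.5 and 8.53, then 12.7, 8.74 and 5.91 CPM, with overlap in each comparison (edgeR adjusted p = 0.877 for Grg3 Grg4-labelled against control, with a sign that turned without Grg3 Grg4-labelled replicate 3).

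The transcription factor genes of gut and pancreatic mesenchyme were low, and their spread was wide in the Grg3 Grg4-labelled group. Tcf21, a regulator of visceral mesenchyme, was at 8.16, 7.6 and 6.93 CPM in the control, 11.4, 13.2 and 10.5 in the Grg3-labelled and 14.6, 29.6 and 8.95 in the Grg3 Grg4-labelled libraries. Every library labelled as mutant was above every control library, and the log2 difference of Grg3 Grg4-labelled against control was 1.23 ± 0.344 (edgeR adjusted p = 0.0913). It was 0.64 without Grg3 Grg4-labelled replicate 2 (adjusted p = 0.174), and without Grg3 Grg4-labelled replicate 3 it passed, at 1.55 (edgeR adjusted p = 0.0252). The summed CPM of 15 muscle genes was likewise higher in every mutant-labelled library (288 to 3300) than in every control library (175 to 238), and its part in the Tcf21 values was not tested. The antisense gene Gm10824 overlaps Tcf21 by 2894 bases on the opposite strand, and its part in the Tcf21 counts was not examined. Barx1, of stomach mesenchyme, was at 13.9, 12.4 and 7.79, then 10.1, 10.7 and 8.31, then 11.9, 6.55 and 17.3 CPM. Nkx3-2, of splanchnic mesenchyme, was at 3.44, 3.06 and 3.67, then 3.29, 3.8 and 2.65, then 7.79, 2.26 and 3.28 CPM, so that 1 Grg3 Grg4-labelled library was above the other 8.

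Of the mesothelial genes, Wt1 had the largest difference. Wt1, a transcription factor of mesothelium, was at 21.6, 27.4 and 21.6 CPM in the control, 26.5, 24.6 and 24.8 in the Grg3-labelled and 27, 47.6 and 34.3 in the Grg3 Grg4-labelled libraries (log2 0.63 ± 0.183 against control, edgeR adjusted p = 0.1; 0.38 without Grg3 Grg4-labelled replicate 2). Grg3 Grg4-labelled replicate 2 was the highest library for 4 of the 37 members (Tcf21, Wt1, Fn1 and Pdgfrb), against 13.9% of all genes tested. It was the lowest for 12 of the 37, against 12.6% of all genes tested. That library also had the highest value in 12 of 15 muscle genes, with a summed muscle CPM of 3300 against 404 to 1060 in the Grg3-labelled libraries and 551 and 288 in its group mates, and the part of that tissue in the member values was not tested. Upk3b and Msln, surface proteins of mesothelium, were at 57 to 95.6 and 19.1 to 37 CPM with overlap throughout. Of 9 other mesothelial genes tested, none passed with edgeR, DESeq2 or voom in any comparison, and 0, 0 and 2 had an unadjusted p under 0.05.

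**Figure D5:**
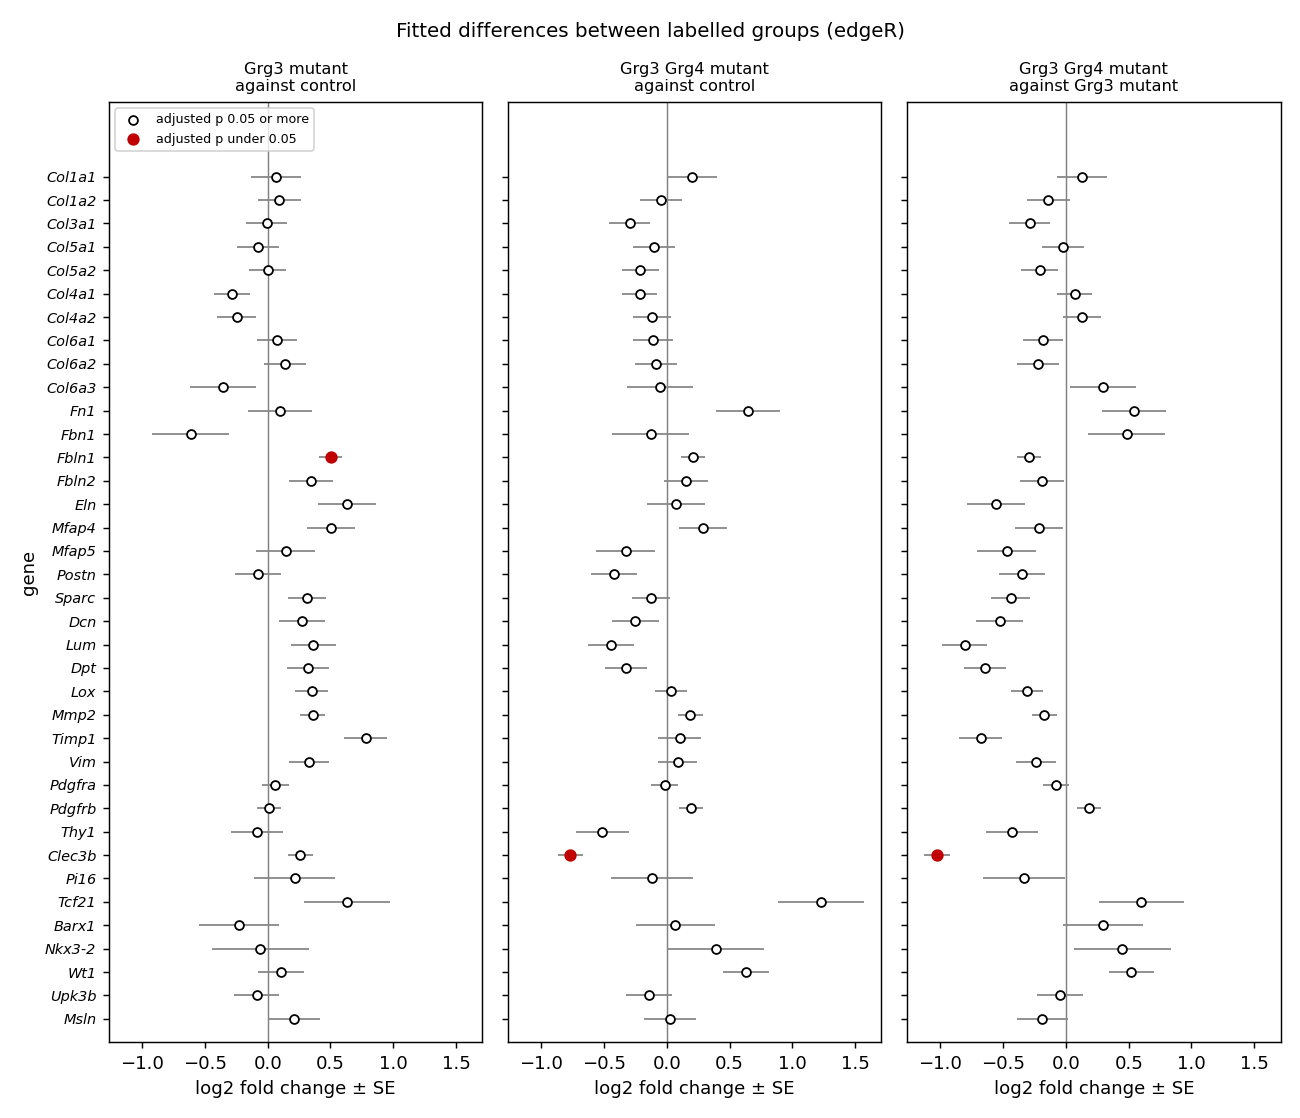
Log2 fold change ± SE of each of the 37 genes in the 3 comparisons of labelled groups (edgeR); filled red points have an adjusted p under 0.05. Fbln1 is filled in the first panel (0.50) and Clec3b in the second (-0.77) and the third (-1.03).

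Counts over the 37 genes were set beside those over all genes. For Grg3-labelled against control, 7 members had no overlap between the groups, all higher, or 18.9% against 24.6% of all genes (12.6% higher and 12% lower). The median log2 difference of the members was 0.105, against 0.02 for all genes, with 25 of 37 above 0 (52.5% of all genes). Without Grg3-labelled replicate 2 it was -0.07, with 15 of 37 above 0.

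For Grg3 Grg4-labelled against control, 6 members were higher and 8 lower without overlap, 37.8% against 29.1% of all genes (14.9% higher and 14.2% lower). The median was -0.06 against 0.01 for all genes, with 16 of 37 above 0 (51.9% of all genes), and it was 0.05 with embryo sex in the fit. For Grg3 Grg4-labelled against Grg3-labelled, 1 member was higher and 8 lower without overlap, 24.3% against 21.1% of all genes (11.8% higher and 9.3% lower). The median was -0.19 against -0.00272 for all genes, with 11 of 37 above 0 (49.7% of all genes), and it was 0.00454 without Grg3-labelled replicate 2. The first and second comparisons share the control libraries.

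Other matrix genes came from lists drawn up by function. Counts in sets of 3 are for Grg3-labelled against control, Grg3 Grg4-labelled against control and Grg3 Grg4-labelled against Grg3-labelled. In that order, edgeR called 1.4%, 2.14% and 0.188% of all genes, and voom 2.2%, 5.39% and 0.125%. DESeq2 called 8%, 8.16% and 5.81% of the genes it gave an adjusted p. Calls in every list below are to be read against these shares. Of 22 genes of collagen modification and secretion, P4ha1, a subunit of the prolyl hydroxylase that stabilises the collagen helix, was the only one to pass edgeR's test, while DESeq2 called 3, 1 and 3 of them and voom 1, 1 and 1. P4ha1 was at 68.9, 73.3 and 69.8 CPM in the control, 91.4, 90.6 and 92.4 in the Grg3-labelled and 65.1, 64.4 and 67.7 in the Grg3 Grg4-labelled libraries. P4ha1 rose by 0.37 ± 0.0636 in Grg3-labelled against control (log2; edgeR adjusted p = 0.028) and fell by 0.48 in Grg3 Grg4-labelled against Grg3-labelled (adjusted p = 0.0282).

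Of 25 other collagen genes, 2 rose in the Grg3-labelled and 1 in the Grg3 Grg4-labelled libraries against control in edgeR. DESeq2 called 5, 7 and 5 of them and voom 3, 4 and 0. Col2a1, of cartilage collagen, was at 2.67, 2.09 and 2.62 CPM in the control, 20.1, 8.6 and 11.8 in the Grg3-labelled and 8.88, 20.2 and 8.4 in the Grg3 Grg4-labelled libraries (log2 2.45 and 2.35 against control, edgeR adjusted p = 0.0243 and 0.0211). Col9a2, a chain of type IX collagen, was at 15, 14.7 and 12.9, then 29.3, 35.4 and 19.1, then 15.7, 15 and 16.8 CPM, and rose by 0.98 in the Grg3-labelled libraries (edgeR adjusted p = 0.0395).

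Of 29 tested genes for other proteoglycans and matricellular proteins, Spon1, which encodes the matrix protein F-spondin, rose in the Grg3-labelled libraries, from 22.8, 20.2 and 19 CPM in the control to 34, 43.9 and 40.1 CPM (log2 0.93, edgeR adjusted p = 0.028). DESeq2 called 3, 2 and 0 of that list and voom 1, 0 and 0. Of 16 tested protease and inhibitor genes, Mmp15, a membrane-bound metalloproteinase, fell in the Grg3 Grg4-labelled libraries, from 101, 106 and 99.1 CPM to 65.4, 62.1 and 78.6 CPM (log2 -0.57, edgeR adjusted p = 0.0197). DESeq2 and voom each called 2, 5 and 0 of that list.

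Lists with no call in edgeR are given with their counts at an unadjusted p under 0.05, in the same order of comparisons, where 19.1%, 20.2% and 17.3% of all genes were counted. Of 15 laminin, nidogen and basement membrane genes, 1, 3 and 7 were counted, and 14 of them were above 0 in the last comparison (49.7% of all genes), with a median of 0.278 (-0.00272 for all genes) and a lowest edgeR adjusted p of 0.158. DESeq2 called 0, 1 and 2 of them and voom none. Lama5, a laminin chain chosen after its values were seen, was at 98.6, 154 and 193 CPM in the control, 163, 149 and 162 in the Grg3-labelled and 213, 257 and 268 in the Grg3 Grg4-labelled libraries, the last group above all others. The median relative log2 CPM of other genes with a transcript over 8 kb was -0.074, 0.13 and 0.238 in the control. That median was -0.129, -0.079 and -0.225 in the Grg3-labelled and 0.048, 0.065 and 0.023 in the Grg3 Grg4-labelled libraries. The part of transcript length in the values of the laminin list was not tested. Of 13 matrix receptor genes, 3, 4 and 0 were counted; DESeq2 and voom each called 1, 1 and 0, and the most abundant, the integrin gene Itgb1, ran from 373 to 457 CPM. Of 25 mesenchymal regulator and signal genes, 3, 8 and 8 were counted; DESeq2 called 0, 1 and 2 and voom 0, 1 and 0, and the most abundant, the growth factor gene Igf2, ran from 134 to 265 CPM. Of 17 tested fibroblast and pericyte markers, 4, 2 and 4 were counted; DESeq2 called 1, 0 and 2 and voom none.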

How the data were processed

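RNA of whole pancreas was counted in 9 libraries, 3 in each labelled group. The deposited files hold raw read counts per gene symbol, with no normalization by the authors. Per the submitters' processing notes, HISAT2, HTSeq, Trim Galore, FastQC, DESeq2 and bedtools were used, on mm10 or GRCm38. Tool versions, annotation and strand setting: not given in the sources used here. In each file, 5 rows that name no gene held 28.5% to 33.2% of reads and were left out.

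The 37 genes and all gene lists were chosen with earlier results of these data known. Counts were tested with edgeR 4.0.16 (R 4.3.3; quasi-likelihood F test, 2-sided, TMM scaling, filterByExpr with minimum count 10 and total 15), fitted on all 9 libraries with a mean per group and adjusted over 19166 genes by Benjamini-Hochberg, threshold 0.05. The fit was tested on simulated data. CPM is counts per 1000000 gene counts after TMM scaling. Log2 CPM used a prior count of 2. Positions and transcript lengths came from GENCODE M21 on GRCm38, which may differ from the authors' annotation. By position, introns included, 17 of the 37 members overlap another annotated gene, and 5 overlap a protein-coding one. Levels per kilobase used the longest transcript; this length replaced the exon union after the per-length values had been seen. Genes named in full passed a test, had groups without overlap, or were among the 3 highest per length of their class; Fbn1 and Pi16 were given in full after their values were seen, and others by range. From other lists, called genes or the most abundant gene were named. Alternatives were DESeq2 1.42.0 size factors and Wald test, limma 3.58.1 voom with quality weights, scaling without acinar genes, other filters, a replicate block, embryo sex, only the 6 libraries compared and each library left out. No library repeated another of its own group (chi-square per degree of freedom between replicates 17.1 to 193). Libraries of different groups were not compared in this way.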

Additional observations from a re-analysis of the deposited data

How the results depend on the processing

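Each count below is of genes past an adjusted p of 0.05, for Grg3-labelled against control, Grg3 Grg4-labelled against control and Grg3 Grg4-labelled against Grg3-labelled in that order. Over all genes (268, 410 and 36 as reported), they were 586, 930 and 228 with no filter, 169, 30 and 4 with embryo sex in the fit, and 1463, 1553 and 1019 with DESeq2's Wald test. The voom fit gave 421 and 1033 against control, the fit of only the 6 libraries compared gave 750 for Grg3 Grg4-labelled against control and 10 between the mutant-labelled groups, and the stricter filter gave 75 between the latter. Leaving out a library gave 32 to 327, 50 to 825 and 6 to 49. Over the 37 members (1, 1 and 1 as reported), no filter gave 3 in each comparison with the Grg3 Grg4-labelled libraries, and embryo sex gave 0, 0 and 0. Only the 6 libraries gave 0 and 3 against control, voom gave 2 for Grg3-labelled against control, and DESeq2 gave 4, 3 and 6. Leaving out a library gave 0 to 1, 1 to 4 and 1 to 1.

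With the replicate number as a block, the counts over all genes were 167, 254 and 11, and over the members 0, 1 and 1; Fbln1 had an adjusted p of 0.0583 in edgeR. Deviations of same-numbered libraries correlated between -0.0858 and 0.094, and those of differently numbered libraries between -0.148 and 0.165. Litters are not stated, and these correlations cannot decide whether same-numbered samples share a litter or batch. Of 1998 member values under the alternatives, 1966 kept their side of the threshold and direction where called, 21 gained a call and 11 lost it; the cause was not tested. Fbln1 lost its call without control replicate 1, 2 or 3, Grg3-labelled replicate 1, or Grg3 Grg4-labelled replicate 1 or 3. With exon union lengths, an alternative chosen after seeing the data, the level per kb in the control moved by more than its SD in 24 of 37 members. The Grg3 Grg4-labelled group has no female library, so sex and genotype are partly confounded there. For Grg3 Grg4-labelled against control, the SE was 0.387 for Nkx3-2 and 0.172 for Timp1, both at a few CPM. It was 0.199 for the abundant Col1a1.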
